A study of Mus musculus with 2 samples.

Results

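The Ifitm genes described here are Ifitm1, Ifitm2, Ifitm3 and Ifitm6, interferon-induced transmembrane genes that lie close together on mouse chromosome 7. They were chosen by name and are 4 of the 31053 genes counted in CD45+ immune cells sorted from mouse cochleae. The cells came from 4 pools of 6 mice each: day 3, day 7 and day 14 after noise exposure, and sham, which the labels also call untreated. Each pool was marked with its own hashtag antibody against MHC class I and CD45 and all were counted in 1 droplet library. The strain, age and sex of the mice are not given in the sources used here. The labels name the droplet kit as version 2 in 1 place and version 3 in another. With 1 pool per condition there were no replicates, so no p-values were computed, and every 95% interval covers counting error only.

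A barcode was given to a pool when its leading hashtag had at least 10 UMIs and at least 80% of its hashtag UMIs. Of 1556 barcodes, 1377 passed a filter of at least 200 genes and at most 10% mitochondrial UMIs, and 1285 of these had a leading hashtag: 341 sham, 551 day 3, 216 day 7 and 177 day 14 cells. Median UMIs per cell ranged from 6528 in sham to 8378 at day 3, and median mitochondrial shares from 2.41% at day 3 to 3.96% in sham. Lineages were gated per cell from marker genes, which placed 1090 cells in 12 named lineages, 56 of them close to the boundary of their gate, and left 195 without a name. Names end in "-like" because they rest on RNA alone. Ptprc, which encodes CD45, was detected in all 12 lineages. The smaller lineages held 12 mast cell or basophil-like, 15 plasmacytoid dendritic cell-like and 22 macrophage-like cells, so their levels rest on few cells.

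IFITM proteins are small membrane proteins of the plasma membrane and of endosomes that hinder the entry of many enveloped viruses by acting where viral and cell membranes fuse. Many immune cells raise them after type I or type II interferon, whose signals act on DNA at the interferon-stimulated response element (ISRE) and the gamma-activated site (GAS). IFITM3 acts mainly in endosomes and is the best studied antiviral member, and IFITM1 is found more at the cell surface. IFITM2 is close to IFITM3 in sequence. Ifitm6 is a less studied member of the mouse cluster.

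The 4 genes lie within 63088 bases of each other (GRCm38 coordinates from GENCODE): Ifitm2 at chr7:140954837-140955987 on the minus strand, Ifitm1 at chr7:140967221-140969825 on the plus strand, and Ifitm3 at chr7:141009586-141010770 and Ifitm6 at chr7:141015699-141017924 on the minus strand. Of the other genes named for the family, Ifitm5 had 15 UMIs, Ifitm7 5 and Ifitm10 150 UMIs in all hashtagged cells, against 1793 for Ifitm1, 5908 for Ifitm2, 7803 for Ifitm3 and 9597 for Ifitm6. The promoters are shown because the family is known for its response to interferon. Each window runs from 250 bases before to 50 bases after the RefSeq start of the gene (GRCm38.p6), 5′ to 3′ on the strand of the gene, with matches to an ISRE (GAAA, any 2 bases, GAAA) or a GAS (TTCNNNGAA) in capitals.
Ifitm1: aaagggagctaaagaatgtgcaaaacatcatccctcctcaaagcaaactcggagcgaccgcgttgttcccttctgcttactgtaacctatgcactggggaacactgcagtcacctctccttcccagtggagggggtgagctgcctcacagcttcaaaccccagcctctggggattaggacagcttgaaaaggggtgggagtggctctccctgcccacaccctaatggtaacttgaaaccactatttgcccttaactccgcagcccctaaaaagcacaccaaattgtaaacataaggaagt
Ifitm2: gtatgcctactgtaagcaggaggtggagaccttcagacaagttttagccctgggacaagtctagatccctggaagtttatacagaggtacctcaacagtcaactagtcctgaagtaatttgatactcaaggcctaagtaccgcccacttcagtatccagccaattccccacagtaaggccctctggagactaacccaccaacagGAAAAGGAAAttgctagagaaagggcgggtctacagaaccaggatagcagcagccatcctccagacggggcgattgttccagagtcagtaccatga
Ifitm3: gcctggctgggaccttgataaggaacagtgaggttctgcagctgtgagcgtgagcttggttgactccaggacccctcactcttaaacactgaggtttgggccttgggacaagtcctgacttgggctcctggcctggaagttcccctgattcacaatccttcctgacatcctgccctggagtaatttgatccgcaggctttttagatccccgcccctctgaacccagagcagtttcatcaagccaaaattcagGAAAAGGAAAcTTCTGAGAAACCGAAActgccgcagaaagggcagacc
Ifitm6: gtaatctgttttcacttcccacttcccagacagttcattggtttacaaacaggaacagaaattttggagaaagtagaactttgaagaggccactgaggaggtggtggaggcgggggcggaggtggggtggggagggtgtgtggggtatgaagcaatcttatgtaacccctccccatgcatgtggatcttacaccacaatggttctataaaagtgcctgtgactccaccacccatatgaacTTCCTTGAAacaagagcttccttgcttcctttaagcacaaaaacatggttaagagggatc
The windows are chr7:140967826-140968125 (plus strand) for Ifitm1, chr7:140955912-140956211 (minus strand) for Ifitm2, chr7:141010695-141010994 (minus strand) for Ifitm3 and chr7:141016843-141017142 (minus strand) for Ifitm6. The RefSeq start used here lies 26 bases downstream of the first base of the GENCODE gene for Ifitm2 and for Ifitm3, but 855 bases downstream for Ifitm1 and 1032 for Ifitm6, so the windows of these last 2 genes lie inside the gene spans given above and the sequence before those spans was not searched.

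Both strands were searched, and positions count from 0 at the first transcribed base. The Ifitm3 window held 2 ISRE matches just downstream of the start, at 2 to 11 and 19 to 28, and a GAS match at 13 to 21 that overlaps the second ISRE. The Ifitm2 window held the same 10 letters as the first of these, GAAAAGGAAA, at -46 to -37. The Ifitm6 window held a GAS match at -10 to -2 and a TATA sequence (TATAAA) at -46 to -41. Ifitm2 also held a TATA match, on the reverse strand at -175 to -170. The Ifitm1 window held no match to the ISRE or the GAS, and no window held the PU.1 motif GAGGAAGT. Among 32851 RefSeq promoter windows, 3.44% held the ISRE, 8.30% the GAS and 13.6% the TATA sequence, and 1052 held the PU.1 motif. A match describes letters only, not binding.

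Ifitm1 was concentrated in a few lineages. Its level was 2304 counts per 1000000 UMIs (CPM; 95% interval 2096 to 2527) in mast cell or basophil-like cells and 601 CPM (551 to 655) in stem or progenitor-like cells. In mast cell or basophil-like cells the level was 2559 CPM in 6 sham cells, 1698 CPM in 5 day 3 cells and 6115 CPM in the single day 7 cell, and day 14 had no such cell. A single cell held 56.7% of the day 3 UMIs. In stem or progenitor-like cells it was 464 CPM in sham, 653 at day 3, 413 at day 7 and 752 at day 14, with 5 to 18 cells per pool. The ranges over pools with at least 5 cells did not overlap between these lineages, and both lay above those of every other named lineage.

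Mature neutrophil-like cells followed with 136 CPM (119 to 154) and monocyte-like cells with 71.6 CPM, of which 59.7% came from 1 cell. No UMI of Ifitm1 was found in 109 B cell-like cells, where 3 UMIs, the floor used for a count of 0, would be 5.17 CPM, or in 22 macrophage-like cells, where they would be 12.8 CPM. The other 6 lineages stood between 1.47 and 8.93 CPM. Outside the named lineages, 7 cells led by the erythroid marker list held 422 UMIs of Ifitm1 (2451 CPM), 71 of them in 2 day 3 cells and 351 in 5 sham cells, with 134 in 1 sham cell.

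Ifitm2 was spread over many lineages. Its levels were 1127 CPM (1063 to 1195) in monocyte-like cells, 834 in mature neutrophil-like, 775 in stem or progenitor-like, 720.3 in mast cell or basophil-like, 505 in macrophage-like, 413 in myeloid progenitor-like and 318 CPM in immature neutrophil-like cells. Each of the first 6 overlapped its neighbour in this order when the pools with at least 5 cells were compared, so their order is not settled. Immature neutrophil-like cells (235 to 346 CPM over the 4 pools) lay below myeloid progenitor-like cells (404 and 414 CPM in the 2 pools with at least 5 cells). B cell precursor-like cells had 135 CPM (91.7 to 193 over the pools), with UMIs in 64 of 143 cells. Plasmacytoid dendritic cell-like, T cell-like, B cell-like and NK cell-like cells had 58.4, 30.9, 29.3 and 11.8 CPM. The day 14 T cell-like pool reached 182 CPM, inside the range of the B cell precursor-like pools, with 69.2% of its 13 UMIs in 1 cell.

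Ifitm3 was highest in the monocyte and macrophage lineages. Monocyte-like cells had 2671 CPM (2571 to 2774) and macrophage-like cells 1301 CPM (1159 to 1456), followed by immature neutrophil-like cells with 752, mature neutrophil-like cells with 552 and stem or progenitor-like cells with 369 CPM. The pool ranges of neighbours overlapped throughout this upper part. All the other lineages were lower: 76.8 CPM in myeloid progenitor-like cells, 58.9 in T cell-like cells, 50.1 CPM in plasmacytoid dendritic cell-like cells (all 12 UMIs in 1 cell) and 24.1 CPM in B cell precursor-like cells. Mast cell or basophil-like cells, the highest for Ifitm1, had 3 UMIs of Ifitm3 (15.3 CPM, 3.16 to 44.8). When cells were grouped by Leiden clusters in place of gates, the C1q-high cluster of 43 cells had 3095 CPM and the Fn1-high and F13a1-high monocyte cluster of 47 cells 1726 CPM, so which of the monocyte and macrophage lineages is higher depends on how they are told apart.

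Ifitm6 was found mainly in neutrophil-like cells and monocyte-like cells. Immature neutrophil-like cells held 80.1% of its UMIs in named lineages, at 2092 CPM (2046 to 2140): 2290.1 in sham, 2112 at day 3, 2676 at day 7 and 1524 CPM at day 14. Mature neutrophil-like cells had 862 CPM (733 to 1121 over the pools) and monocyte-like cells 321 CPM (260 to 409 over the 3 pools with at least 5 cells), and these 3 ranges did not overlap. In plasmacytoid dendritic cell-like cells the 26 UMIs all came from 1 of 15 cells. The remaining 8 lineages had 1 to 8 UMIs each and no more than 17.1 CPM. Myeloid progenitor-like cells, the deepest lineage, were among them with 5.36 CPM (1.97 to 11.7).

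Shares of cells follow depth as well as level, so cells were also thinned to 2000 UMIs each. Ifitm6 was then seen in 93.1% of 203 immature neutrophil-like cells (99.0% of 208 before thinning) and Ifitm3 in 84.6% of 52 monocyte-like cells (92.5% of 53 before). As a lineage at the low end, B cell-like cells, with a median of 5150 UMIs against 15747.5 in immature neutrophil-like and 17199 in monocyte-like cells, showed Ifitm6 in 1.83% and Ifitm3 in 3.67% of 109 cells before thinning, and neither in any of these cells after it. By the limit of 3 counts, 0 of 109 cells allows up to 2.75% of cells with a UMI at 2000 UMIs per cell; it does not limit the share of cells that express the gene.

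**Figure D1:**
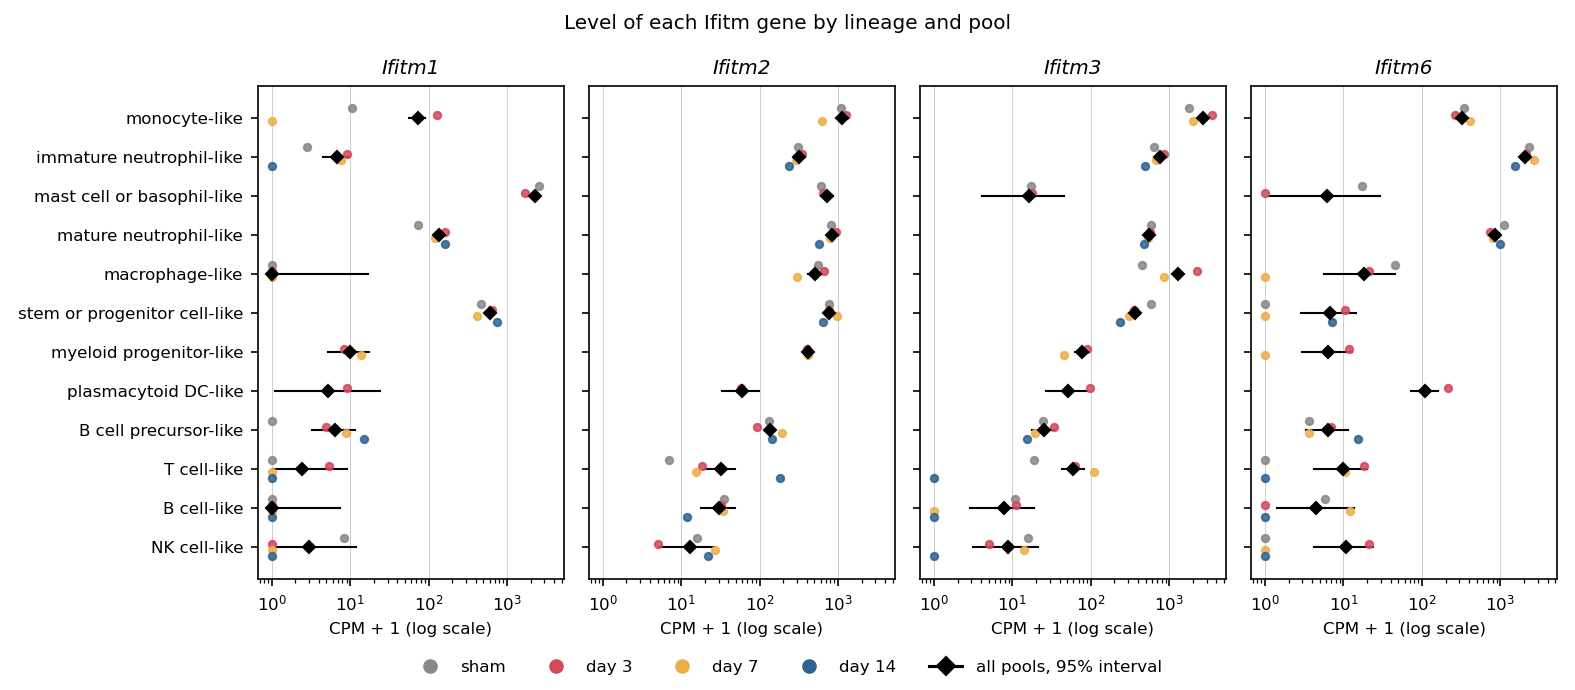
Level of each gene in 12 lineages as CPM + 1 on a log scale; black diamonds are all pools together with 95% counting intervals and coloured points are pools with at least 5 cells of the lineage. Ifitm1 peaks at 2304 CPM in mast cell or basophil-like cells, Ifitm2 and Ifitm3 in monocyte-like cells (1127 and 2671 CPM) and Ifitm6 in immature neutrophil-like cells (2092 CPM).

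The blend of the family differed among lineages. UMIs count molecules from 1 end of the transcript and were not divided by length. Ifitm3 made up 63.7% of the family's UMIs in monocyte-like cells and 71.4% in macrophage-like cells, Ifitm6 66.0% in immature neutrophil-like cells, Ifitm1 75.7% in mast cell or basophil-like cells, and Ifitm2 81.9% in myeloid progenitor-like and 79.4% in B cell precursor-like cells. Mature neutrophil-like cells were mixed, with 36.2% Ifitm6, 35.0% Ifitm2, 23.2% Ifitm3 and 5.70% Ifitm1. The 4 genes together ranged from 31.6 CPM in NK cell-like cells to 4191 CPM in monocyte-like cells. Within mature neutrophil-like cells thinned to 2000 UMIs, Ifitm1 and Ifitm6 were seen together in 5.28% of 284 cells, where the product of their separate shares is 8.70%, and Ifitm1 and Ifitm2 in 16.2%, where the product is 13.2%.

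**Figure D2:**
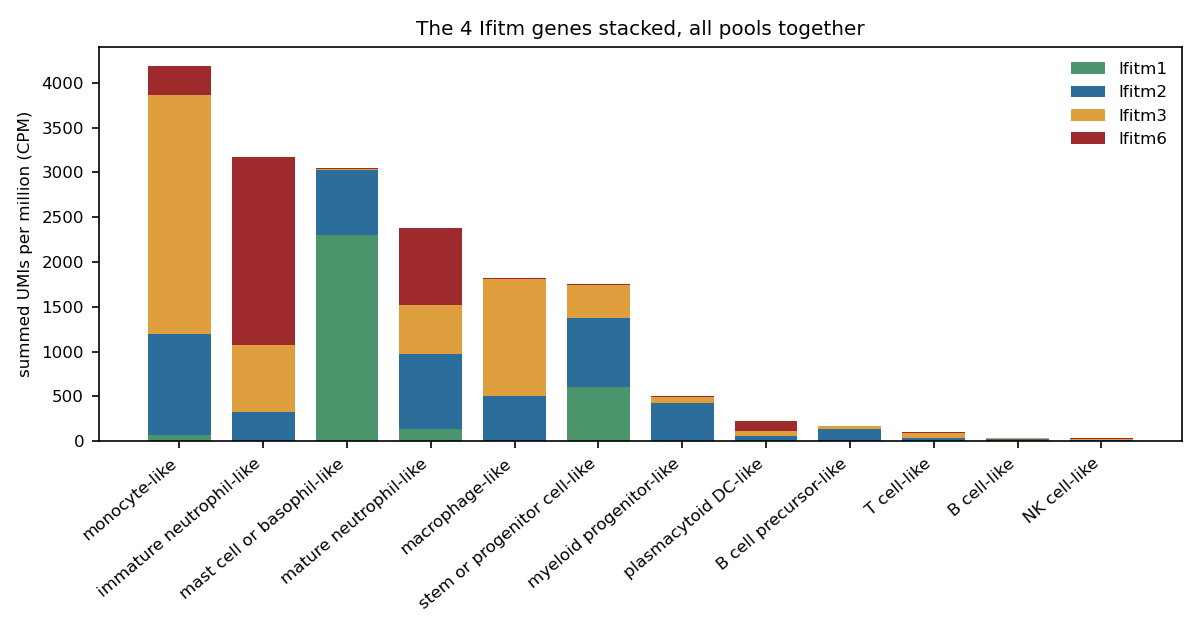
Summed CPM of the 4 genes in each named lineage, all pools together, as stacked bars from 0. Monocyte-like cells have the tallest bar (4191 CPM, mostly Ifitm3), and the colour that dominates changes from lineage to lineage.

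Across the 12 lineages, levels as log2(CPM + 10) correlated with r = 0.71 between Ifitm2 and Ifitm3, 0.65 between Ifitm1 and Ifitm2, 0.63 between Ifitm3 and Ifitm6, 0.35 between Ifitm2 and Ifitm6, 0.11 between Ifitm1 and Ifitm3 and -0.01 between Ifitm1 and Ifitm6. These are descriptions over 12 points from 1 library that differ in depth. Among 5726 other genes, the pattern most like that of Ifitm1 was Ndrg1 (r = 0.97), then Nek9, Gata2, Cpa3 and Osm. For Ifitm2 it was Plin2, which coats lipid droplets (0.90), then Rab31, Vill, Tctex1d2 and Rab32, and for Ifitm3 it was Cd14, the co-receptor for lipopolysaccharide (0.92), then Aph1c, Rin2, Lst1 and Ralb. For Ifitm6 it was the neutrophil surface gene Cd177 (0.97), then Slfn4, Ly6g, Fpr2 and Mmp9. Gata2, Cpa3, Cd177 and Mmp9 are gate markers.

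Along the neutrophil lineage the 4 genes followed different courses. Leiden clusters, made without the 4 genes, were put in order by hand and by marker ratio. Myeloid progenitors, led by Elane, Prtn3 and Mpo, were put first (stage 1) for their genes, although their ratio of mature to immature marker UMIs, 0.0393, is above the 0.00662 of the next cluster. The rest follow this ratio. Stage 2 is a cluster led by Chil3 and Orm1, and stage 3 a cluster with the secondary granule genes Ngp and Ltf. Stage 4 is a Retnlg-high and Mmp8-high cluster, stage 5 a Ccl6-high cluster and stage 6 a cluster led by the cytokine gene Il1b. The ratios of the last 2 stages were close, 26.3 and 29.5, so the order of the first 2 and of the last 2 stages is unsure. The stages hold 30, 24, 141, 124, 155 and 70 cells. The median cell had 3216 UMIs at stage 6, against 37242.5 at stage 1.

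Ifitm6 was highest in the middle of this order, at 5.46 CPM in stage 1, 578 in stage 2, 2626 in stage 3, 1964 in stage 4, 284 in stage 5 and 68.3 CPM in stage 6. Over pools with at least 5 cells, stages 3 (2362 to 2827 CPM), 4 (1666 to 2349) and 5 (179 to 327) did not overlap. Stages 5 and 6 (39.4 to 180 CPM) just did. Stages 3 and 4 were barely apart: their nearest values, 2362 and 2349 CPM, were both from day 14. The intervals of these 2 values overlapped (2168 to 2568 and 2126 to 2589 CPM). Stage 3 cells held 5815 UMIs of Ifitm6 in 141 cells and stage 6 cells 16 in 70.

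Ifitm2 and Ifitm1 were highest in the Il1b-high cluster. Ifitm2 stood at 404, 202, 304.4, 460.3, 606 and 2779.6 CPM from stage 1 to stage 6, and stage 6 (2276 to 2893 CPM over the 4 pools) was above stage 5 (452 to 761) in every pool. Counted per cell, there were 651 UMIs in 70 stage 6 cells, against 674 in 141 stage 3 cells that were far deeper. After thinning to 2000 UMIs, Ifitm2 was seen in 94.0% of stage 6 cells and 44.1% of stage 3 cells. Ifitm1 stood at 6.37, 1.30, 2.26, 33.4, 155 and 397 CPM, and its pool ranges in stages 4 (19.7 to 63.8), 5 (84.1 to 169) and 6 (239 to 506 CPM) did not overlap.

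Mature and immature neutrophil-like cells were also split into 6 bins of 85 or 86 cells by each cell's marker ratio. This split was chosen after the data were seen. It does not set the Il1b-high cells apart: Il1b had 3203, 5595 and 4145 CPM in the last 3 bins, against 14568 CPM in stage 6 and 3355 in stage 5. The bins therefore cannot show whether there is a step at stage 6. From the most immature to the most mature bin, Ifitm2 had 258, 358, 472, 1031, 968 and 835 CPM, and the pool ranges of the last 3 bins overlapped (831 to 1232, 454 to 1436 and 601 to 938 CPM). Ifitm1 had 2.09, 7.87, 13.1, 177, 162 and 191 CPM, and its last 3 bins overlapped too (74.2 to 207, 99.4 to 184 and 40.1 to 349 CPM). Both genes were higher in each of the last 3 bins than in the first 3, with no further step in the last bin. Ifitm6 had 1585, 2666, 2356, 780.5, 278 and 276 CPM in these bins.

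Ifitm3 was low in stage 1 (71.9 CPM), highest in stages 3 and 4 (816 and 771 CPM) and lower in stages 5 and 6 (409 and 397 CPM). In stage 6 it had 179 CPM in sham (9 UMIs, 15 cells), 583 at day 3 (74 UMIs, 37 cells), 149.9 at day 7 (5 UMIs) and 211 CPM at day 14 (5 UMIs). Day 3 was the highest, but its interval (458 to 732) overlapped that of day 14 (68.4 to 492). After thinning, Ifitm3 was seen in 26.7% of 15 stage 6 cells in sham, 42.9% of 35 at day 3, 40% of 10 at day 7 and 42.9% of 7 at day 14. In stage 3 Ifitm3 had 651 CPM in sham (578 to 730), 931 at day 3 (880 to 985), 669 at day 7 and 634 CPM at day 14. Day 3 was not the highest in the other 2 stages with all pools: stage 4 had 819.5 CPM in sham, 779 at day 3, 703 at day 7 and 759.7 CPM at day 14, and stage 5 had 431, 428, 437 and 297 CPM in the same order.

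**Figure D3:**
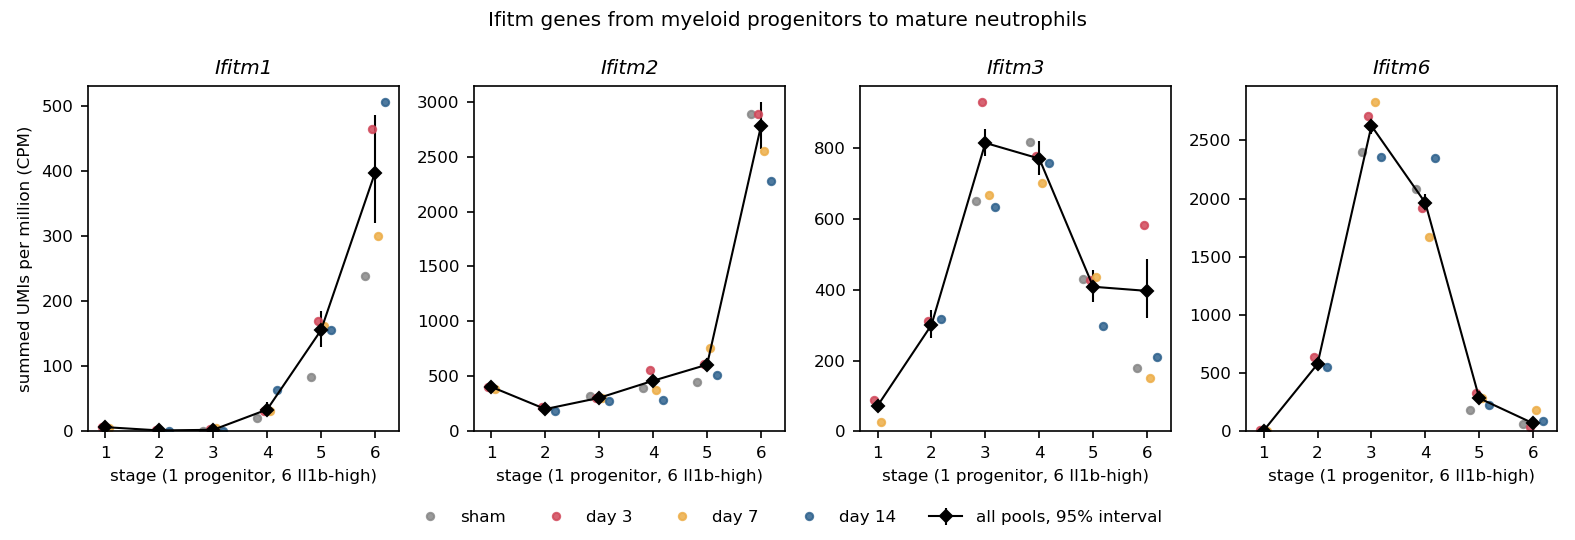
Level of each gene in CPM in 6 clusters ordered from myeloid progenitors (stage 1) to Il1b-high neutrophils (stage 6); black diamonds are all pools with 95% counting intervals and coloured points are pools with at least 5 cells. Ifitm6 peaks at stage 3 (2626 CPM) and Ifitm2 and Ifitm1 at stage 6 (2779.6 and 397 CPM).

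Expression was compared with sham where both pools had at least 30 cells of a lineage, which gave 6 comparisons: mature neutrophil-like cells on all 3 days, and immature neutrophil-like, B cell precursor-like and B cell-like cells at day 3. A gene was called measured when the 2 pools summed to at least 20 UMIs, and past the fold with a ratio of at least 1.5 either way. Because 1 sham pool is the denominator throughout, directions seen on several days are not independent.

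In mature neutrophil-like cells Ifitm1 was the member past the fold upward. It stood at 71.4 CPM in sham (24 UMIs), 161 at day 3 (133), 118 at day 7 (40) and 161 CPM at day 14 (43), so every pool after noise was above sham. The ratio to sham was 2.26 (1.46 to 3.65) at day 3, 1.66 (0.976 to 2.88) at day 7 and 2.25 (1.34 to 3.88) at day 14. The day 7 value rests on 1 cell that held 37.5% of the UMIs; without it the ratio was 1.05 (0.575 to 1.92). Without its top cell the day 3 ratio was 1.91 and the day 14 ratio 1.86. The shares of cells with a UMI were 37.8% of 143 cells at day 3 and 29.8% of 57 in sham. Their intervals overlapped (29.8 to 46.2% and 18.4 to 43.4%). At day 7 the share was 25.4% of 59 cells and at day 14 33.3% of 48. After thinning, the shares were 20.8% in sham, 23.1% at day 3, 17.9% at day 7 and 19.5% at day 14. Only day 3 was then above sham. The mean of per-cell CPM was 124 in sham, 277 at day 3, 174 at day 7 and 190 at day 14. At day 14 the ratio of these means was 1.535.

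Ifitm6 was lower after noise in the same cells, at 1121 CPM in sham, 733 at day 3, 817 at day 7 and 992 CPM at day 14. The ratio was 0.653 (0.574 to 0.745) at day 3, 0.729 (0.622 to 0.853) at day 7 and 0.884 (0.753 to 1.04) at day 14. On day 14, 1 cell held 33.2% of the UMIs, and the ratio without it was 0.616 (0.512 to 0.738). In the day 3 comparison the top cell was a sham cell with 11.4% of the sham UMIs. Without this sham cell the day 3 ratio was 0.717, inside the fold. The blend of stages also differed between the pools. Stage 4, which is high in Ifitm6, made up 21.0% of the mature neutrophil-like cells at day 3, against 38.6% in sham. Its share was 30.5% at day 7 and 25% at day 14, the reverse of the order of the Ifitm6 levels on these days. With the stages held at their sham share of UMIs, the Ifitm6 ratio was 0.926 at day 3, 0.836 at day 7 and 1.09 at day 14, and the Ifitm1 ratio 1.87, 1.57 and 2.44.

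Ifitm2 and Ifitm3 stayed inside the fold in mature neutrophil-like cells on all 3 days. Ifitm2 had 800.2 CPM in sham, 954 at day 3, 785 at day 7 and 569 CPM at day 14, with ratios of 1.19 (1.04 to 1.37), 0.981 (0.824 to 1.17) and 0.711 (0.579 to 0.871). Ifitm3 had 592 CPM in sham, 569 at day 3, 536 at day 7 and 472 CPM at day 14, with ratios of 0.961 (0.813 to 1.14), 0.905 (0.736 to 1.11) and 0.797 (0.632 to 1.00). Thus 1 of the 4 members was past the fold upward and 1 downward at day 3, where 14.5% and 8.61% of the 3877 measured genes were. At day 7 and at day 14, 1 of the 4 was past the fold upward, against 10.1% of 2784 and 9.5% of 2611 measured genes, and none downward, against 11.7% and 14.5%. Without its top cell, no member was past the fold at day 7.

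In immature neutrophil-like cells at day 3, Ifitm3 had 854 CPM (1918 UMIs in 128 cells) against 643 CPM in sham (351 UMIs in 31 cells), a ratio of 1.33 (1.18 to 1.49), and 1.24 (1.11 to 1.40) without the top cell. Ifitm6 had 2112 CPM against 2290.1 in sham, a ratio of 0.922 (0.866 to 0.982). With the stages held at their sham share of UMIs the Ifitm6 ratio was 1.08, above 1. Stage 2, with 640 CPM of Ifitm6 at day 3, held 20.1% of the lineage's UMIs at day 3 and 6.23% in sham (1 cell). Ifitm2 had 346 CPM against 306 in sham, a ratio of 1.13 (0.955 to 1.34). Ifitm1 had 18 UMIs at day 3 and 1 in sham, under the minimum. None of the 3 measured members was past the fold, where 26% of 6057 measured genes were. The lineage was a larger share of the day 3 pool: 23.2% of day 3 cells (19.8 to 27.0%), against 9.09% of sham cells (6.26 to 12.7%).

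In B cell precursor-like cells Ifitm2 had 91.7 CPM at day 3 against 129.9 CPM in sham, a ratio of 0.706 (0.464 to 1.07), and Ifitm3 33.2 against 23.4 CPM, a ratio of 1.42 (0.598 to 3.61). Both intervals include 1, and neither member was past the fold, where 12.7% of 5583 measured genes were upward and 10.4% downward. In B cell-like cells no member reached the minimum, so none could be counted against the 24.1% of 2942 measured genes past the fold.

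**Figure D4:**
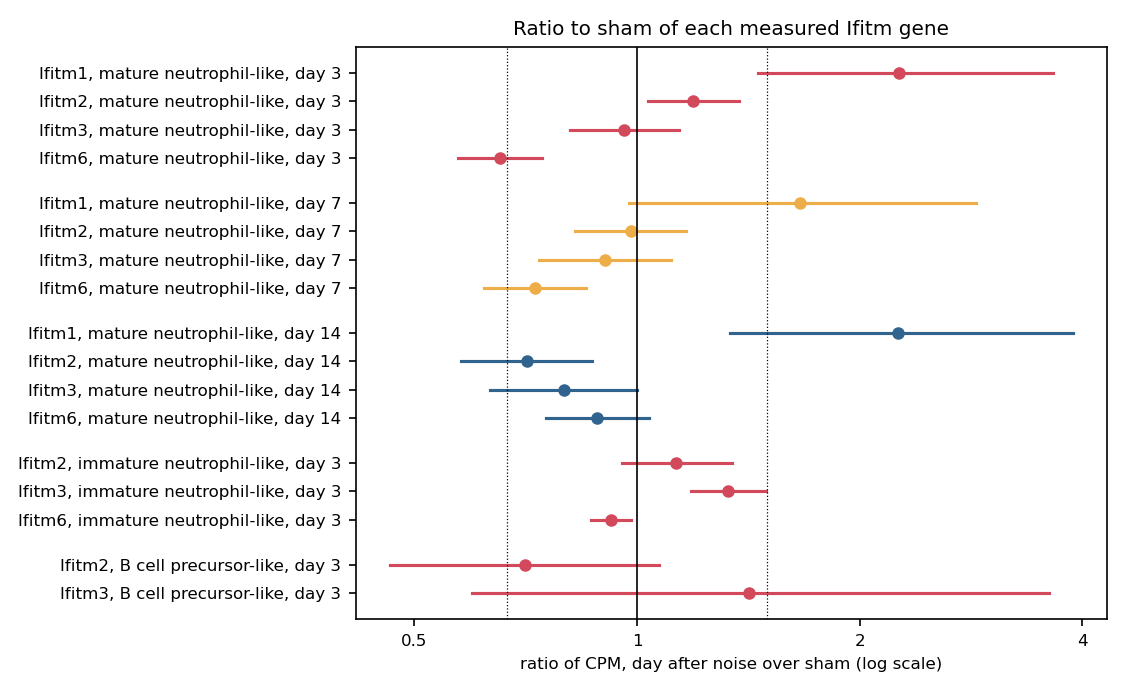
Ratio of CPM, day after noise over sham, on a log scale with 95% counting intervals, for each measured gene and comparison; the solid line is 1 and the dotted lines are 1.5-fold either way. In mature neutrophil-like cells Ifitm1 lies at 2.26, 1.66 and 2.25 on days 3, 7 and 14, and Ifitm6 at 0.653, 0.729 and 0.884.

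Monocyte-like cells and macrophage-like cells were too few for a ratio and are given as levels. In monocyte-like cells Ifitm3 had 1779 CPM in sham (1634 to 1933, 17 cells), 3511 at day 3 (3351 to 3677, 27 cells), 2015 at day 7 (5 cells) and 1513 CPM at day 14 (4 cells). Day 3 was the highest pool, and no cell held more than 11.2% of its UMIs. These values depend on the gate. The Fn1-high and F13a1-high Leiden cluster, with 18 sham and 17 day 3 cells, had 1147 to 2004 CPM of Ifitm3 over pools with at least 5 cells. The C1q-high cluster, with 6 sham and 25 day 3 cells, had 447 to 3726 CPM. Macrophage-like cells had 447 CPM of Ifitm3 in 6 sham cells, 2258 in 6 day 3 cells, 868 in 6 day 7 cells and 173 CPM in 4 day 14 cells, with 44.8% of the day 3 UMIs in 1 cell. Ifitm2 differed less: 1075 CPM in sham, 1259 at day 3, 628 at day 7 and 1108 CPM at day 14 in monocyte-like cells. Ifitm1 in monocyte-like cells had 126 CPM at day 3 and 9.60 CPM in sham, and 66.2% of the day 3 UMIs came from 1 cell. In T cell-like cells Ifitm3 had 3 UMIs in 28 sham cells (17.8 CPM), 14 in 30 day 3 cells (61.2 CPM), 23 in 21 day 7 cells (109 CPM) and 0 in 9 day 14 cells, where 3 UMIs would be 41.9 CPM.

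In the pools as a whole, Ifitm3 had 377 CPM in sham (357 to 398), 741 at day 3 (720.2 to 762), 366 at day 7 and 317 CPM at day 14. The day 3 ratio to sham was 1.97 (1.85 to 2.09). With each lineage weighted by its sham share of UMIs it was 1.81. This weighting takes cells of no named lineage as 1 group, in which Ifitm3 had 473 CPM at day 3 and 97.7 CPM in sham. In this group 13 of 55 day 3 cells had a UMI of Ifitm3, and 1 cell held 43.8% of the 283 UMIs. The day 7 and day 14 ratios were 0.972 and 0.840, or 1.31 and 0.784 at the sham blend. Ifitm6 had 493 CPM in sham, 829 at day 3, 445 at day 7 and 633 CPM at day 14, and its day 3 ratio of 1.68 (1.59 to 1.77) became 0.869 at the sham blend. Its ratios at day 7 and day 14 were 0.902 and 1.28, or 1.07 and 0.779 at the sham blend. Immature neutrophil-like cells supplied 85.6% of the day 3 UMIs of Ifitm6 and 71.5% of those in sham.

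Ifitm2 had 368 CPM in sham, 468 at day 3, 358 at day 7 and 306 CPM at day 14, and its day 3 ratio was 1.27 (1.19 to 1.36), or 1.12 at the sham blend. Ifitm1 was highest in sham, at 178 CPM, against 118 at day 3, 79.9 at day 7 and 92.4 CPM at day 14, with ratios of 0.661, 0.449 and 0.519. At the sham blend they were 0.705, 0.806 and 0.324, the last with no mast cell or basophil-like cell present. Cells of no named lineage held 58.6% of the sham UMIs of Ifitm1, with 351 UMIs in the 5 cells led by the erythroid marker list.

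**Figure D5:**
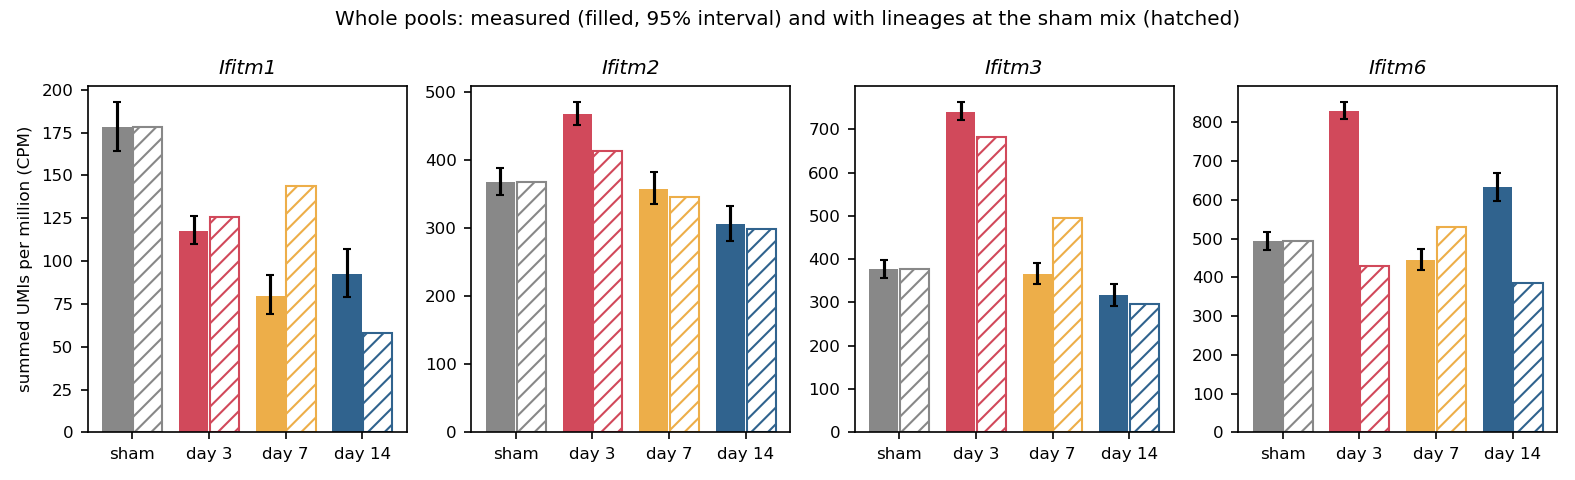
CPM of each gene in the whole pools (filled bars with 95% counting intervals) and with lineages weighted by their sham share of UMIs (hatched bars); no mast cell or basophil-like cell was present at day 14. At day 3 Ifitm3 stays above sham in both (741 and 683 against 377 CPM), whereas Ifitm6 does not (829 and 429 against 493 CPM).

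A list of 24 interferon response genes, 23 of them counted, gives the setting. In mature neutrophil-like cells at day 3, 7 of its 10 measured members were past the fold upward and 1 downward, against 14.5% and 8.61% of all measured genes, with a median log2 ratio of 1.72 against 0.04 over all measured genes and 0.10 over the 4 Ifitm genes. Isg15, a ubiquitin-like modifier, had 194 CPM at day 3 against 41.6 in sham, a ratio of 4.66 (2.70 to 8.72). Irf7, a transcription factor of the interferon response, had 58.2 CPM against 11.9 in sham, a ratio of 4.89 (1.79 to 18.7), and Ifi27l2a 195 against 77.3 CPM, a ratio of 2.53 (1.66 to 3.98). Trim30a was lower, at 34.0 CPM at day 3 and 56.5 CPM in sham, a ratio of 0.601 with an interval that includes 1 (0.324 to 1.14). The Ifitm3 ratio in the same cells was 0.961. On day 7, 2 of 5 measured members were past the fold upward and 1 downward, against 10.1% and 11.7% of all measured genes (median log2 ratio -0.12). On day 14, 2 of 5 were upward and none downward, against 9.5% and 14.5% (0.19).

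In immature neutrophil-like cells at day 3, 6 of 10 measured members of this list were past the fold upward and none downward, where 17.4% and 8.65% of all measured genes were (median log2 ratio 0.92). Ly6e had 192 CPM against 87.9 in sham, a ratio of 2.18 (1.61 to 3.00). Ifi27l2a had 416 UMIs against 1 in sham (ratio 101, 18.1 to 4004) and Bst2, which tethers budding viruses, had 70 against 2 (ratio 8.51, 2.27 to 71.6). A single cell held 54.3% of the day 3 UMIs of Ifi27l2a and 71.4% of those of Bst2. Ifit3 (ratio 5.35, 0.865 to 221), Irf7 (1.85, 0.952 to 4.01) and Trim30a (1.94, 0.591 to 10.1) were also counted upward, with intervals that include 1. The top cell held 81.8% of the day 3 UMIs of Ifit3 and 50% of those of Trim30a, against 27.6% for Irf7 and 20.7% for Ly6e. In B cell precursor-like cells 3 of 5 measured members were past the fold upward at day 3, where 12.7% of measured genes were, led by Ifi27l2a (252 against 83.2 CPM, ratio 3.03, 2.04 to 4.61), and in B cell-like cells 1 of 2, where 11.1% were, again Ifi27l2a (365 against 58.4 CPM, ratio 6.24, 3.36 to 12.6).

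Of 13 interferon receptor and signalling genes, 1 of 9 measured was past the fold upward and none downward in mature neutrophil-like cells at day 3. It was the kinase gene Jak2, with 36.4 against 14.9 CPM (ratio 2.45, 0.940 to 8.08). The receptor gene Ifnar2 had a ratio of 0.987. In immature neutrophil-like cells at day 3, 3 of 11 were past the fold upward (Ifnar1, Stat2 and Irf9) and 1 downward (Irf1), each with an interval that includes 1. In mature neutrophil-like cells 1 was upward and 1 downward of 9 measured at day 7 (Jak2 and Irf1) and of 8 at day 14 (Irf9 and Ifnar1). The counts at day 3 were 1 upward and 2 downward of 10 in B cell precursor-like cells, and 2 upward and 1 downward of 8 in B cell-like cells. Over all measured genes the shares upward and downward were 14.5% and 8.61% in mature neutrophil-like cells at day 3, 10.1% and 11.7% at day 7, 9.5% and 14.5% at day 14, 17.4% and 8.65% in immature neutrophil-like, 12.7% and 10.4% in B cell precursor-like and 11.1% and 13% in B cell-like cells. With so few members measured, these counts are not set apart from those shares.

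Of 12 genes around the cluster on chromosome 7, none of 5 measured was past the fold in mature neutrophil-like cells at day 3, none of 4 in immature neutrophil-like cells and none of 5 in B cell precursor-like cells. In mature neutrophil-like cells the proteasome gene Psmd13 was lower at day 7, 1 of 3 measured, and Bet1l was higher at day 14, 1 of 4. Psmd13 and Rnh1 were lower in B cell-like cells at day 3, 2 of 3 measured. All these intervals include 1. Of 9 genes for proteins linked to IFITM trafficking or modification, 6 were measured in mature neutrophil-like cells at day 3, and 1 was past the fold downward: Nedd4, a ubiquitin ligase that acts on IFITM3, with 14.6 against 23.8 CPM (ratio 0.612, 0.230 to 1.73). Zdhhc20, a palmitoyltransferase, had 56.3 CPM at day 7 against 86.3 CPM in sham (ratio 0.652, 0.346 to 1.20), the only call of this list among 5 measured genes that day. Zmpste24, an IFITM partner in antiviral defence, had 46.8 CPM at day 3 against 18.2 CPM in sham in B cell precursor-like cells (ratio 2.57, 1.08 to 7.07), the only call of 8. None of 5 at day 14, of 8 in immature neutrophil-like cells or of 6 in B cell-like cells was past the fold. Of 7 other genes with the Cd225 domain shared by the family, 6 were counted and at most 1 was measured in any comparison. The gene measured in immature neutrophil-like cells, Ifitm10, was past the fold upward at day 3, with 19 against 3 UMIs (ratio 1.54, 0.453 to 8.12). Shares of all measured genes past the fold in either direction, against which the counts of these 3 lists are read, were 23.1%, 21.8% and 24% in mature neutrophil-like cells at days 3, 7 and 14, 26% in immature neutrophil-like, 23.1% in B cell precursor-like and 24.1% in B cell-like cells.

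Reads of Ifitm2 are less certain than those of the other 3 genes. Of 410 windows of 91 bases in the last 500 bases of its transcripts, 107 (26.1%) also occur in another gene model: the processed pseudogenes Gm11951 and Gm8865, which are not among the counted genes, and Gm45717, a model that overlaps Ifitm2 and had 0 UMIs. None of the windows of Ifitm1, Ifitm3 or Ifitm6 was shared.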

How the data were processed

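The deposited matrices hold whole-number UMI counts per gene and barcode from the authors' 3′ droplet library, made with Cell Ranger 3.1.0 per the file headers and build mm10, per the submitters' processing notes. The rule that called cells among barcodes is not stated there. Gene counts were identical in both matrices and were used once (15753747 UMIs; 1873067 to 6681492 per pool). The hashtag rule removes mixtures across pools; doublets within a pool were not removed and no caller was run. The members, lists and gates were chosen with earlier results of these data known.

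A marker was on when its counts per 10000 reached 0.1 of the mean in the top 1% of barcodes; the list with most markers on, at least 2 and ahead of all others, gave the lineage. A lineage needed 10 cells and 3 own markers among its 10 leading genes. The plasma cell list (30 cells) failed this. Named list genes have the interval bound farthest from 1, with these exceptions. Ifit3, Trim30a, Ifnar1, Ifnar2, Stat2, Irf1, Irf9, Jak2, Psmd13, Bet1l, Rnh1, Ifitm10, Nedd4, Zdhhc20 and Zmpste24 were chosen after their values were seen. So was Irf7 in immature neutrophil-like cells. Ratios have exact conditional Poisson intervals, levels exact Poisson and shares Clopper-Pearson intervals. No p-values were computed. Clusters used scanpy 1.11.5 (2000 variable genes, 30 components, 15 neighbours, resolution 1). TMM scaling used edgeR 4.0.16 in R 4.3.3; the rest used Python 3.11.15 with scipy 1.17.1. The ratio code was run on simulated counts with known folds. These counts held counting error alone, as the intervals assume, so spread between cells or pools was not tested. GENCODE coordinates matched 30934 of 31053 gene IDs, and all 4 promoters were found in RefSeq.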

Additional observations from a re-analysis of the deposited data

Results flagged for a closer look

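In the 92 barcodes that passed the filter but had no leading hashtag, and so entered no pool, Ifitm2 stood at 435 CPM, Ifitm3 at 799 CPM and Ifitm6 at 872 CPM, against 368, 377 and 493 CPM in the sham pool. They are listed because these signals lie outside every comparison and above the control. Of these barcodes, 37 fell in named lineages and held 94.8%, 97.2% and 99.9% of the UMIs of the 3 genes. Neutrophil-like barcodes (19) held 87.3% of the Ifitm6 UMIs, and monocyte-like and macrophage-like barcodes (7) held 52.1% of the Ifitm3 UMIs. The 24 barcodes led by the epithelial marker list held 3, 4 and 1 UMIs of Ifitm2, Ifitm3 and Ifitm6. Why these barcodes lacked a hashtag was not tested.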

How the results depend on the processing

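Counts of members past 1.5-fold were equal or within 1.5 times under 40 of 52 alternatives, and 143 of 151 single ratios stayed within their main interval; none of the called ratios reversed. Levels moved by more than their interval in 61 of 180 cases and shares of cells, which follow depth, in 35 of 48. At day 3 in mature neutrophil-like cells the count was 1 in place of 2 with Leiden clusters, with the mean of per-cell CPM, without the top cell and with clusters at the sham mix, the last chosen after seeing the data. The Ifitm6 ratio there ranged from 0.635 to 0.926. At day 7 it was 0 in place of 1 with per-cell means and without the top cell. At day 14 it was 2 in place of 1 with the stricter gate, per-cell means and no top cell. In B cell precursor-like cells it was 1 in place of 0 without the barcode filter, with Leiden clusters and with the stricter gate. The cause was not tested.

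The highest lineage was the same under 6 of 7 alternatives for Ifitm1, Ifitm2 and Ifitm3, and under all 7 for Ifitm6. For the alternative with Leiden clusters, clusters of the same name were counted as 1 lineage. Ifitm1 was then highest in the cluster that merged stem cells with mast cells and basophils (838 CPM). Ifitm2 and Ifitm3 were highest in the macrophage cluster (924 and 3095 CPM, with 902 and 1726 CPM in the monocyte cluster). Among single clusters Ifitm2 was highest in the Il1b-high cluster, named mature neutrophil, at 2779.6 CPM. Without mitochondrial and ribosomal protein genes the highest levels were 3291 CPM (Ifitm1), 1486 (Ifitm2), 3521 (Ifitm3) and 2210 CPM (Ifitm6). Per-cell means gave 3217 CPM for Ifitm1 and 2372 CPM for Ifitm6, the stricter gate 2044 CPM for Ifitm6, and leaving out the top cell 2520 CPM for Ifitm3. No paired analysis was possible because each condition is 1 pool, and no replicate could be left out. Levels under 10 CPM rest on at most 21 UMIs.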
